A study of Mus musculus with 25 samples.

Results

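Lysosomal hydrolases and lysosomal membrane proteins were followed at the RNA level in whole mouse aortas. The 39 genes were taken by symbol from an abundance table of 23284 genes, without the cathepsins and the subunits of the proton pump, and all 39 passed the filter of a mean of at least 1 FPKM that left 12797 genes for testing. They comprised 12 membrane proteins and transporters, 12 glycosidases, 5 sulfatases, 7 lipid hydrolases and activators, and 3 members in a group of 1 protease and 2 phosphatases. The study set Apoe knockout mice (EKO), which lack apolipoprotein E, beside Apoe and Apoa1 double knockout mice (DKO), which also lack apolipoprotein A-I, so that every animal carried the Apoe deletion. All were males of the strain given as C57/BL6J, fed a Western-type diet (WD) or a normal laboratory diet (NLD) for 22 or 6 weeks from 8 weeks of age. The groups were EKO WD 22 weeks, EKO NLD 22 weeks, EKO WD 6 weeks, EKO NLD 6 weeks, DKO WD 22 weeks, DKO NLD 22 weeks and DKO WD 6 weeks with 3 libraries each, and DKO NLD 6 weeks with 4. FPKM divides the fragments of a gene by its transcript length and by the fragments mapped in the library, so that levels of different genes can be set beside each other per length. A whole aorta holds several cell types, and in such bulk samples fewer cells of a type and less RNA per cell cannot be told apart.

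The lysosome is the acidic compartment in which cells degrade material that they take up or recycle. Its soluble hydrolases work in sequence on glycoproteins, glycosaminoglycans, sphingolipids and neutral lipids, and activator proteins lift lipids out of membranes for them. Its membrane is lined by heavily glycosylated proteins and carries the channels and transporters that export the products. In atherosclerotic arteries, macrophages that ingest lipoproteins depend on acid lipase and on the cholesterol export proteins of this compartment. Many lysosomal genes carry in their promoters a palindromic element that transcription factors of the MiT/TFE family can bind.

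EKO WD 22 weeks replicate 2 listed 17675 genes at 0 against 5509 to 6504 in the other libraries, and its zeros were taken as missing. Of the members, 12 had a value in it and 27 did not, so those 27 rest on 2 libraries in that group. Over all tested genes with a value in it, the median ratio to the mean of the 2 other replicates was 0.979. This ratio was not computed for the 12 members alone. Among them Gaa, Sgsh and Arsb lay between the 2 other replicates. The rest lay below both, such as Psap (2258 against 2322 and 3589.5 FPKM) and Gm2a (37.5 against 44.7 and 57.9 FPKM). The complete libraries of EKO at 22 weeks had higher FPKM totals (448239 to 556933, against 360421 to 415555 in the other groups) and more Ppia, a common reference gene (1029.8 to 1348 FPKM, against 449.9 to 842 FPKM). All EKO libraries, and no DKO library, are described in the labels as re-analyses of earlier samples, so genotype and any difference in handling between these sets cannot be told apart. The deleted genes did not check the labels, since Apoe reads ran up to 20.7 FPKM in EKO and 10.7 FPKM in DKO, and Apoa1 was barely expressed in either (medians of 0.118 FPKM in EKO and 0.417 FPKM in DKO). The smooth muscle markers of the vessel wall were abundant in every group, with medians of their summed level between 2290.5 and 9851 FPKM. Labels do not say more of the replicates than that they are separate samples, so p-values measure the spread between these libraries.

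The 39 genes were chosen with earlier results of these data known, and 31 of them had their highest group mean in EKO WD 22 weeks. The share of all genes tested with their highest group mean there was not computed, so this count has no background beside it. In WD against NLD in EKO at 22 weeks, 24 members were higher, 1 was lower and 14 did not pass the test, at an adjusted p under 0.05 in limma. Over all genes tested 10.4% were higher and 9.17% lower in the same comparison, and the median log2 fold change was 0.57 over the members and -0.06 over all genes. Higher genes made up 53% of all calls in it, and 64.9% with libraries rescaled by their median ratio. In EKO against DKO on WD at 22 weeks, 27 members were higher and none was lower, where 18.6% of all genes were higher and 2.93% lower, with medians of 0.77 over the members and 0.10 over all genes. Here higher genes were 86.4% of all calls, and 73.4% with rescaling. In 22 against 6 weeks in EKO on WD, 23 members were higher and 1 was lower, against backgrounds of 14.8% and 4.45%. These 3 comparisons all contain the EKO WD 22 weeks libraries and are not independent. In all 3 of them 22 members were higher, namely Lamp1, Lamp2, Npc1, Cln3, Slc11a1, Glb1, Gla, Hexa, Neu1, Gusb, Man2b1, Manba, Naglu, Fuca2, Galns, Asah1, Lipa, Psap, Gm2a, Npc2, Tpp1 and Acp2. At the other end, 8 members passed in none of the 12 comparisons between pairs of groups, and these were Scarb2, Cd164, Laptm4a, Sort1, Gaa, Idua, Arsa and Arsb. The shares of all genes that were higher in all 3 comparisons, or that passed in none of the 12, were not computed.

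**Figure D1:**
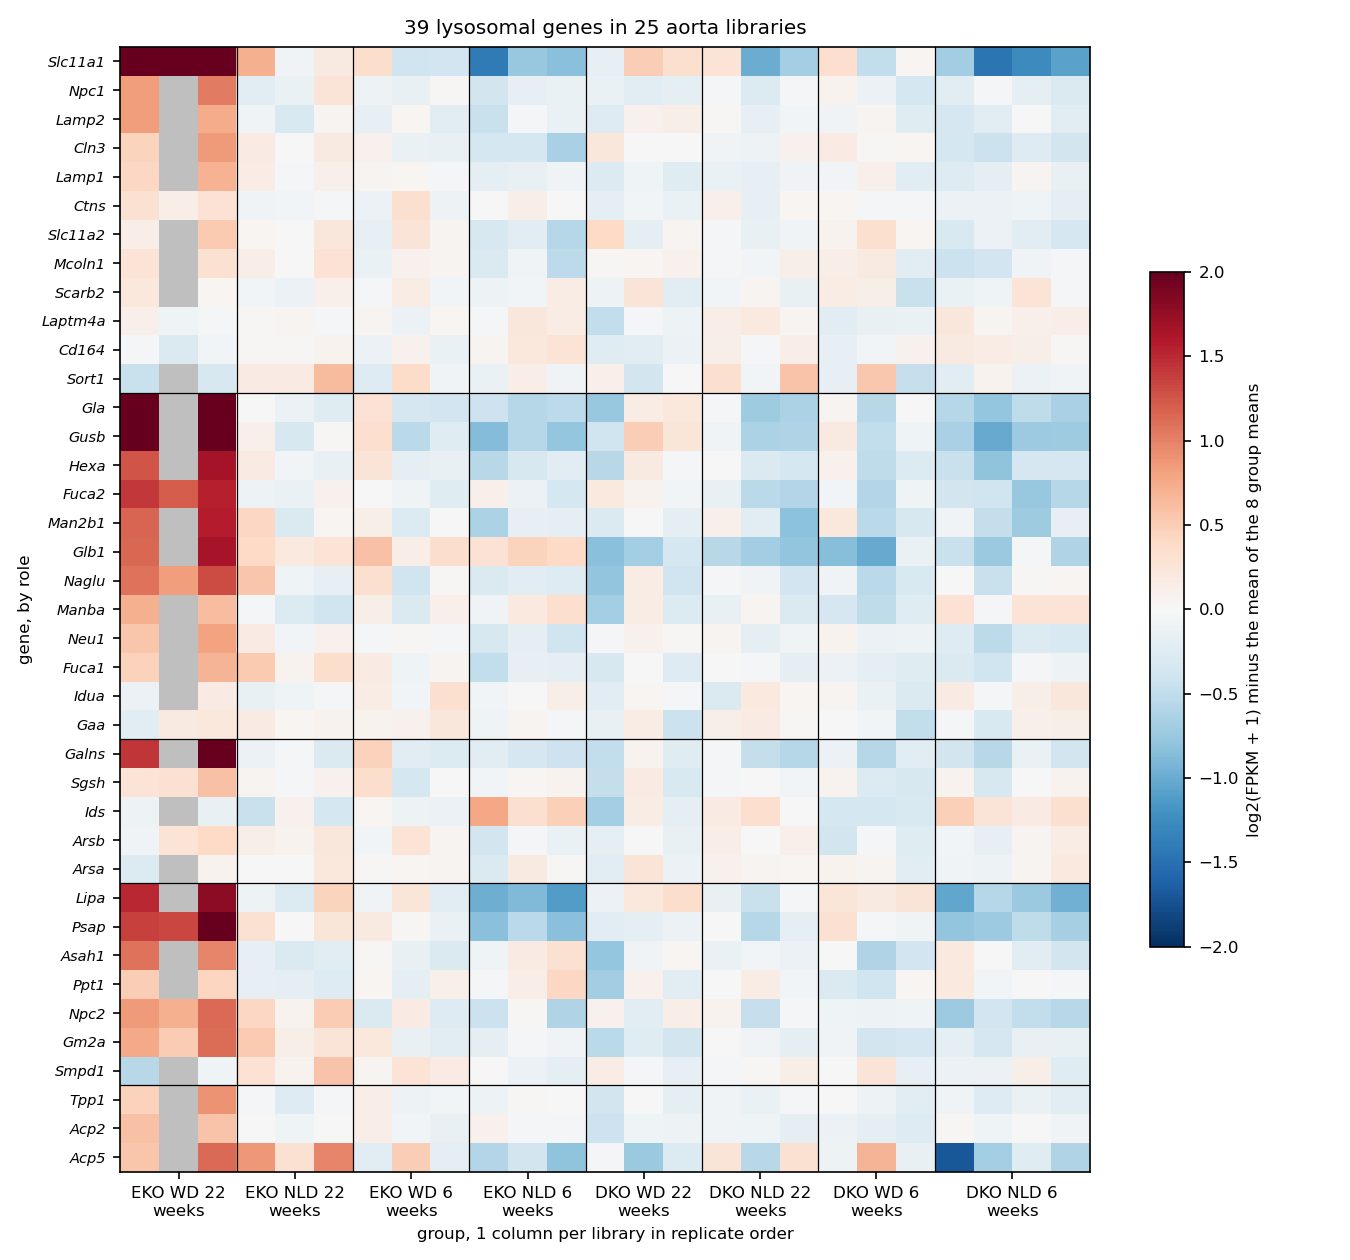
Level of each of the 39 genes (rows, by role) in each library (columns, by group), as log2(FPKM + 1) minus the mean of the 8 group means of that gene. Grey cells are missing values of EKO WD 22 weeks replicate 2, and the red block at the left marks the EKO WD 22 weeks libraries, where 31 of 39 genes had their highest group mean. The share of all genes with their highest group mean there was not computed.

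Markers of macrophages moved in the same comparison. All 8 macrophage markers were higher in EKO WD 22 weeks than in EKO NLD 22 weeks, among them Cd68 (6.29-fold), Emr1 (3.89-fold) and Mpeg1 (8.38-fold). Their summed level came mostly from Lyz2. It was 4401 to 5862 FPKM in EKO WD 22 weeks (2 libraries) and 712 to 1035 FPKM in EKO NLD 22 weeks. None of the 8 was at 0, and the medians were 475 FPKM in EKO WD 6 weeks, 262 FPKM in EKO NLD 6 weeks, 979.9 FPKM in DKO WD 22 weeks, 342 FPKM in DKO NLD 22 weeks, 681 FPKM in DKO WD 6 weeks and 209 FPKM in DKO NLD 6 weeks. Of 6 fat markers 5 were lower in that comparison, with sums of 1985 to 2823 FPKM in EKO WD 22 weeks and 5334 to 7166 FPKM in EKO NLD 22 weeks. Of 5 fibroblast markers 1 was higher, Lum (403 to 540 FPKM in EKO WD 22 weeks and 47.9 to 84.5 FPKM in EKO NLD 22 weeks), and their sums were 1335 to 1479 FPKM in EKO WD 22 weeks and 685 to 969 FPKM in EKO NLD 22 weeks. None of 6 smooth muscle markers passed, with sums of 3349 to 3498 FPKM in EKO WD 22 weeks and 3909 to 5565 FPKM in EKO NLD 22 weeks. None of these 4 sums overlapped between the groups, with 2 libraries in EKO WD 22 weeks, and how often all genes do so was not computed. The sums of 6 endothelium markers did overlap, at 298 to 329 FPKM in EKO WD 22 weeks and 232 to 322 FPKM in EKO NLD 22 weeks. The part that any of these cell types had in the levels of the lysosomal genes was not tested.

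**Figure D2:**
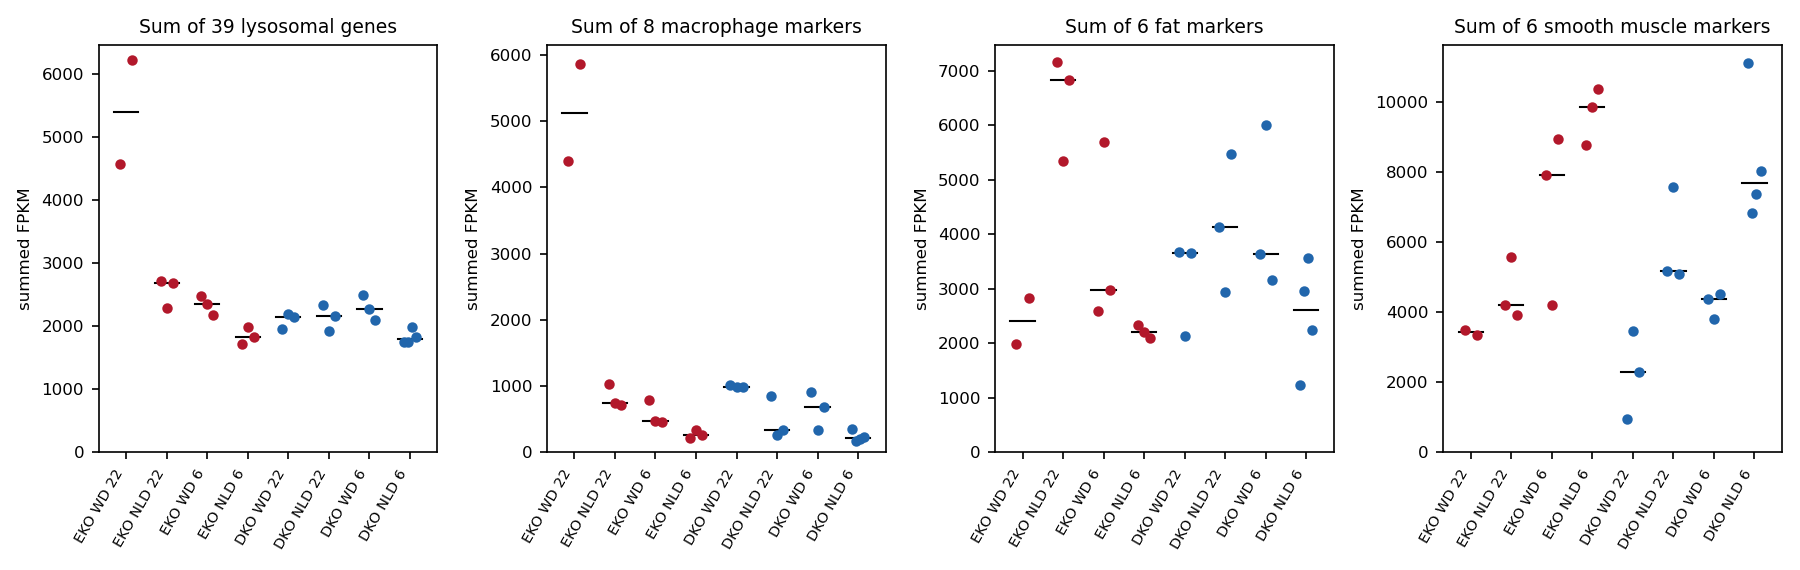
Summed FPKM per library (points) and the group median (lines) of the 39 lysosomal genes, 8 macrophage markers, 6 fat markers and 6 smooth muscle markers, by group (EKO in red, DKO in blue, each with diet and weeks). The members and the macrophage markers both stand highest in EKO WD 22 weeks, where the marker sum was 4401 to 5862 FPKM, and EKO WD 22 weeks replicate 2 is left out. Psap alone gave 2322 of 4575 FPKM and 3590 of 6227 FPKM of the member sum in that group. Most of the marker sum came from Lyz2.

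The promoters are shown because many members moved together. The window of 300 bases from 250 before to 50 after the start site, as RefSeq gives it on GRCm38.p6, was at hand for 34 of the 39 genes (not for Slc11a2, Npc1, Sort1, Galns and Asah1). The element TCACGTGA, the core of the MiT/TFE site, was in a window of 4 members (11.8% of 34), against 1.12% of all 27025 genes of the table. Of those genes that the abundance table lists, 15707, the share was 1.51%. Cln3 had the element only in window 2 of 2, around a start site inside the annotated gene. The window at the outer start site of Cln3 held none. The shorter E-box CACGTG, which the longer element contains, was in 10 members (29.4%), against 8.09% of all genes and 9.28% of those that the abundance table lists. Both read the same on either strand. Among 71 other lysosomal genes the shares were 15.5% and 25.4%. Each site of the longer element in the members is printed below on the strand of its gene with the E-box in capitals, together with the sites of Lamp1, the member with the most E-boxes, and of Glb1, the member with the largest difference between EKO and DKO averaged over the 4 diet and time groups, a contrast added after the data were seen.
Cd164 (chr10:41519413-41519418, plus strand, at -87 from the start site): cgggctgctCACGTGaccggcgcg
Mcoln1 (chr8:3500474-3500479, plus strand, at -45): cgccccgctCACGTGaccgcggcg
Cln3 (chr7:126583352-126583357, minus strand, at -121): gggtactgtCACGTGacccccaac
Gla, distal (chrX:134601227-134601232, minus strand, at -227): gcgattgatCACGTGagcatctac
Gla, proximal (chrX:134601194-134601199, minus strand, at -194): gatctcggtCACGTGagcaactct
Lamp1, site 1 (chr8:13159100-13159105, plus strand, at -61): gcaagatatCACGTGgtccagcgc
Lamp1, site 2 (chr8:13159116-13159121, plus strand, at -45): tccagcgccCACGTGatgccgact
Lamp1, site 3 (chr8:13159133-13159138, plus strand, at -28): gccgactggCACGTGaccacatca
Lamp1, site 4 (chr8:13159146-13159151, plus strand, at -15): tgaccacatCACGTGcggaacgga
Glb1 (chr9:114401030-114401035, plus strand, at -48): cttctgagtCACGTGgcctacaga

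Members with and without these letters were both among those called. Of the 10 members with an E-box in the window, 5 were higher in WD against NLD in EKO at 22 weeks and 5 were not called, with a median log2 fold change of 0.42. Of the 24 without one, 16 were higher, 1 was lower and 7 were not called, with a median of 0.61. Gla, with its pair of TCACGTGA sites, had the largest change of all members (log2 2.27), while Cd164 and Mcoln1, with 1 such site each, had changes of -0.16 and 0.15 and were not called. A match of letters is a description and not evidence of binding.

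Among the 12 membrane proteins and transporters, 6 were higher in WD against NLD in EKO at 22 weeks and none was lower. Slc11a1, the divalent metal transporter of phagocyte lysosomes, had 40.7, 37.5 and 56.2 FPKM in EKO WD 22 weeks, against 14.2, 7.79 and 9.47 FPKM in EKO NLD 22 weeks, and 10.8, 6.02 and 6.13 FPKM in EKO WD 6 weeks, against 2.49, 4.48 and 4.18 FPKM in EKO NLD 6 weeks. In the double knockout it had 7.21, 11.99 and 10.5 FPKM in DKO WD 22 weeks, against 10.2, 3.63 and 4.77 FPKM in DKO NLD 22 weeks, and 10.7, 5.56 and 8.45 FPKM in DKO WD 6 weeks, against 4.71, 2.36, 2.82 and 3.42 FPKM in DKO NLD 6 weeks. The 3 EKO WD 22 weeks libraries stood above every other library, including the partial one. The log2 fold change of WD against NLD at 22 weeks was 2.01 (SE 0.32, adjusted p = 0.000212) in EKO, and 0.68 (SE 0.32, adjusted p = 0.252) in DKO.

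Npc1, the membrane protein that exports cholesterol from the lysosome, had 22.04 and 25.5 FPKM in EKO WD 22 weeks, against 10.2, 10.9 and 14.5 FPKM in EKO NLD 22 weeks, and 11.1, 10.7 and 12.1 FPKM in EKO WD 6 weeks, against 9.005, 10.5 and 10.9 FPKM in EKO NLD 6 weeks. DKO aortas had 10.7, 10.2 and 10.4 FPKM in DKO WD 22 weeks, against 11.8, 9.66 and 11.6 FPKM in DKO NLD 22 weeks, and 12.6, 10.9 and 9.099 FPKM in DKO WD 6 weeks, against 10.03, 11.7, 10.4 and 9.62 FPKM in DKO NLD 6 weeks. Both EKO WD 22 weeks libraries lay above all others, which overlapped between the remaining groups. Its log2 fold change in EKO at 22 weeks was 0.96 (SE 0.14, adjusted p = 0.000118).

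Lamp1, with Lamp2 the main glycoprotein of the lysosomal membrane, was the most abundant of these transcripts per length. It had 339 and 410.1 FPKM in EKO WD 22 weeks, against 281, 247 and 272 FPKM in EKO NLD 22 weeks, and 261, 261 and 245 FPKM in EKO WD 6 weeks, against 220.3, 228 and 239 FPKM in EKO NLD 6 weeks. DKO levels were 209, 239 and 214 FPKM in DKO WD 22 weeks, against 229.6, 227 and 239.6 FPKM in DKO NLD 22 weeks, and 244, 272 and 217 FPKM in DKO WD 6 weeks, against 212, 224, 261 and 227 FPKM in DKO NLD 6 weeks. The EKO WD 22 weeks libraries were again the highest, by a smaller margin, with a log2 fold change of 0.48 (SE 0.13, adjusted p = 0.0136). The call was lost without EKO WD 22 weeks replicate 3.

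Laptm4a, a small transmembrane protein of late endosomes and lysosomes, had the smallest difference in this group. It had 189, 165 and 170.01 FPKM in EKO WD 22 weeks, against 179, 183 and 173 FPKM in EKO NLD 22 weeks, and 183, 161 and 180.04 FPKM in EKO WD 6 weeks, against 169.9, 206 and 195 FPKM in EKO NLD 6 weeks. In DKO it had 125, 173 and 163 FPKM in DKO WD 22 weeks, against 192, 202 and 182 FPKM in DKO NLD 22 weeks, and 149.96, 158 and 161 FPKM in DKO WD 6 weeks, against 205, 183, 188 and 193 FPKM in DKO NLD 6 weeks. In EKO the WD and NLD values overlapped at both times, while in DKO the WD values lay below the NLD values at both times, and the log2 fold change in EKO at 22 weeks was -0.03 (SE 0.12, adjusted p = 0.882).

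Of the other membrane proteins, Lamp2 (0.895), Cln3 (0.54), the protein missing in Batten disease, and Ctns (0.29), the cystine exporter, were higher in EKO at 22 weeks on WD by these log2 fold changes. The calls of Cln3 and Ctns were lost without EKO WD 22 weeks replicate 3, and that of Ctns also without EKO WD 22 weeks replicate 1 or any of the 3 EKO NLD 22 weeks libraries. The calcium channel Mcoln1 (0.15), the iron transporter Slc11a2 (0.24), Scarb2 (0.14), which carries glucocerebrosidase to the lysosome, the sialomucin Cd164 (-0.16) and the sorting receptor Sort1 (-0.703) did not pass. Over all libraries Lamp2 ran between 52.3 and 128.005 FPKM, Scarb2 between 48.5 and 80.9 FPKM, Cd164 between 45.6 and 67.6 FPKM, and Sort1 between 17.5 and 38.4 FPKM. Cln3 ran between 4.07 and 13.3 FPKM, Ctns between 6.001 and 9.06 FPKM, Mcoln1 between 11.4 and 21.01 FPKM, and Slc11a2 between 7.54 and 17.3 FPKM. Sort1 lay at 17.8 and 19.3 FPKM in EKO WD 22 weeks, below its 3 values in EKO NLD 22 weeks (27.5, 27.6 and 38.4 FPKM), with an adjusted p of 0.0535.

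Among the 12 glycosidases, which trim sugars from glycoproteins, glycolipids and glycosaminoglycans, 9 were higher in EKO at 22 weeks on WD and none was lower. Gla, the alpha-galactosidase that is deficient in Fabry disease, had 20.3 and 20.3 FPKM in EKO WD 22 weeks, against 3.79, 3.44 and 3.07 FPKM in EKO NLD 22 weeks, and 4.86, 2.801 and 2.69 FPKM in EKO WD 6 weeks, against 2.62, 2.22 and 2.34 FPKM in EKO NLD 6 weeks. DKO aortas had 1.84, 4.35 and 4.56 FPKM in DKO WD 22 weeks, against 3.703, 1.94 and 2.11 FPKM in DKO NLD 22 weeks, and 3.98, 2.29 and 3.79 FPKM in DKO WD 6 weeks, against 2.24, 1.802, 2.37 and 2.05 FPKM in DKO NLD 6 weeks. No other library came above 4.86 FPKM. The log2 fold change at 22 weeks was 2.27 (SE 0.26, adjusted p = 1.4e-05) in EKO, which is 4.82-fold on the FPKM + 1 scale, and 0.32 (SE 0.23, adjusted p = 0.495) in DKO.

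Gusb, the beta-glucuronidase, had 155 and 189 FPKM in EKO WD 22 weeks, against 40.04, 29.5 and 37.8 FPKM in EKO NLD 22 weeks, and 47.2, 25.2 and 31.4 FPKM in EKO WD 6 weeks, against 19.9, 24.8 and 21.3 FPKM in EKO NLD 6 weeks. DKO aortas had 27.98, 52.95 and 44.3 FPKM in DKO WD 22 weeks, against 35.2, 23.7 and 24.1 FPKM in DKO NLD 22 weeks, and 42.4, 26.2 and 35.1 FPKM in DKO WD 6 weeks, against 23.4, 18.1, 22.1 and 22.5 FPKM in DKO NLD 6 weeks. Both EKO WD 22 weeks values were far above the highest DKO value of 52.95 FPKM. With WD at 22 weeks the log2 fold change was 2.24 (SE 0.27, adjusted p = 1.96e-05) in EKO and 0.55 (SE 0.24, adjusted p = 0.217) in DKO.

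Hexa, the alpha chain of beta-hexosaminidase, was the most abundant glycosidase per length. It had 191 and 253 FPKM in EKO WD 22 weeks, against 88.8, 76.1 and 71.02 FPKM in EKO NLD 22 weeks, and 94.7, 70.02 and 71.2 FPKM in EKO WD 6 weeks, against 53.8, 63.3 and 68.1 FPKM in EKO NLD 6 weeks. DKO levels were 53.8, 90.3 and 76.7 FPKM in DKO WD 22 weeks, against 79.97, 64.8 and 61.8 FPKM in DKO NLD 22 weeks, and 84.3, 55.7 and 65.3 FPKM in DKO WD 6 weeks, against 57.6, 45.04, 62.6 and 62.2 FPKM in DKO NLD 6 weeks. Both EKO WD 22 weeks libraries exceeded every other one, and the log2 fold change in EKO at 22 weeks was 1.48 (SE 0.22, adjusted p = 0.000159).

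Gaa, the acid alpha-glucosidase that degrades glycogen, had the smallest difference among them. It had 35.4, 47.2 and 48.5 FPKM in EKO WD 22 weeks, against 46.9, 42.6 and 43.7 FPKM in EKO NLD 22 weeks, and 43.9, 43.96 and 48.9 FPKM in EKO WD 6 weeks, against 39.3, 43.3 and 40.5 FPKM in EKO NLD 6 weeks. DKO levels were 37.3, 46.2 and 30.6 FPKM in DKO WD 22 weeks, against 45.2, 46.5 and 42.2 FPKM in DKO NLD 22 weeks, and 41.8, 39.8 and 29.4 FPKM in DKO WD 6 weeks, against 40.4, 33.6, 44.6 and 45.4 FPKM in DKO NLD 6 weeks. In EKO the WD and NLD values overlapped at 22 weeks, with a log2 fold change of -0.03 (SE 0.15, adjusted p = 0.904), and at 6 weeks the WD values lay above the NLD values.

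The other glycosidases higher in this comparison were Fuca2 (log2 1.45), an alpha-fucosidase, Man2b1 (1.31) and Manba (0.899), the alpha- and beta-mannosidases, Glb1 (1.11), the beta-galactosidase, Naglu (0.97), which acts on heparan sulfate, and the sialidase Neu1 (0.62). All 6 held their calls without any single library. Fuca1 (0.25), the other alpha-fucosidase, and Idua (0.11), the iduronidase, did not pass. Over all libraries Fuca2 ran between 2.67 and 17.1 FPKM, Man2b1 between 14.2 and 78.7 FPKM, Manba between 4.66 and 13.8 FPKM, and Naglu between 8.34 and 38.7 FPKM. Neu1 ran between 5.74 and 15.9 FPKM, Fuca1 between 24.04 and 55.5 FPKM, and Idua between 7.85 and 12.6 FPKM.

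Of the 5 sulfatases, which remove sulfate from glycosaminoglycans and sulfatides, only Galns passed in EKO at 22 weeks. Galns, which acts on keratan sulfate and chondroitin sulfate, had 17.2 and 26.03 FPKM in EKO WD 22 weeks, against 5.18, 5.56 and 4.52 FPKM in EKO NLD 22 weeks, and 8.27, 4.72 and 4.57 FPKM in EKO WD 6 weeks, against 4.802, 4.33 and 4.06 FPKM in EKO NLD 6 weeks. DKO aortas had 3.75, 6.02 and 4.64 FPKM in DKO WD 22 weeks, against 5.51, 3.83 and 3.51 FPKM in DKO NLD 22 weeks, and 5.17, 3.53 and 4.76 FPKM in DKO WD 6 weeks, against 4.18, 3.55, 5.097 and 4.196 FPKM in DKO NLD 6 weeks. Both EKO WD 22 weeks values stood well above the next highest library, EKO WD 6 weeks replicate 1 at 8.27 FPKM. On WD against NLD at 22 weeks its log2 fold change was 1.87 (SE 0.23, adjusted p = 2.15e-05) in EKO and 0.14 (SE 0.20, adjusted p = 0.787) in DKO.

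Sgsh, the sulfamidase of heparan sulfate, had 8.68, 8.91 and 11.02 FPKM in EKO WD 22 weeks, against 7.26, 6.82 and 7.49 FPKM in EKO NLD 22 weeks, and 9.24, 5.28 and 6.98 FPKM in EKO WD 6 weeks, against 6.74, 7.22 and 7.42 FPKM in EKO NLD 6 weeks. DKO levels were 4.76, 7.97 and 5.498 FPKM in DKO WD 22 weeks, against 6.89, 7.07 and 6.701 FPKM in DKO NLD 22 weeks, and 7.36, 5.59 and 5.404 FPKM in DKO WD 6 weeks, against 7.36, 5.38, 7.01 and 7.37 FPKM in DKO NLD 6 weeks. Its 3 values in EKO WD 22 weeks all lay above the 3 of EKO NLD 22 weeks, but the log2 fold change of 0.36 (SE 0.17, adjusted p = 0.133) did not pass.

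Ids, the iduronate sulfatase and the most abundant of this group per length, had 14.3 and 13.9 FPKM in EKO WD 22 weeks, against 11.1, 16.5 and 11.9 FPKM in EKO NLD 22 weeks, and 15.9, 14.3 and 14.2 FPKM in EKO WD 6 weeks, against 27.2, 19.4 and 21.9 FPKM in EKO NLD 6 weeks. DKO levels were 9.29, 17.2 and 13.3 FPKM in DKO WD 22 weeks, against 17.4, 19.7 and 15.4 FPKM in DKO NLD 22 weeks, and 11.8, 11.8 and 12.4 FPKM in DKO WD 6 weeks, against 21.8, 18.7, 17.5 and 19.5 FPKM in DKO NLD 6 weeks. In contrast to Galns, its group mean was highest on NLD at 6 weeks in both genotypes, and the log2 fold change of WD against NLD in EKO at 22 weeks was 0.11 (SE 0.19, adjusted p = 0.709).

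Arsb, which acts on dermatan sulfate, had 11.3, 14.7 and 16.2 FPKM in EKO WD 22 weeks, against 13.04, 12.6 and 14.1 FPKM in EKO NLD 22 weeks, and 11.5, 14.6 and 12.5 FPKM in EKO WD 6 weeks, against 9.06, 11.6 and 10.8 FPKM in EKO NLD 6 weeks. DKO levels were 10.4, 11.97 and 10.7 FPKM in DKO WD 22 weeks, against 13.2, 12.05 and 12.9 FPKM in DKO NLD 22 weeks, and 9.09, 11.7 and 9.93 FPKM in DKO WD 6 weeks, against 11.4, 10.5, 12.4 and 13.4 FPKM in DKO NLD 6 weeks. In EKO at 22 weeks the WD and NLD values overlapped, with a log2 fold change of 0.07 (SE 0.12, adjusted p = 0.733), and in DKO at 22 weeks the WD values lay below the NLD values. Arsa, the sulfatide sulfatase, ran between 12.6 and 18.8 FPKM over all libraries and gave -0.18, which did not pass.

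All 7 lipid hydrolases and activators changed in EKO at 22 weeks on WD, 6 of them higher and 1 lower. Lipa, the acid lipase that frees cholesterol from lipoprotein esters, had 127 and 154 FPKM in EKO WD 22 weeks, against 40.9, 35.96 and 60.2 FPKM in EKO NLD 22 weeks, and 41.9, 52.3 and 37.5 FPKM in EKO WD 6 weeks, against 21.9, 23.2 and 19.6 FPKM in EKO NLD 6 weeks. In DKO it had 40.2, 50.96 and 56.02 FPKM in DKO WD 22 weeks, against 39.4, 31.9 and 42.9 FPKM in DKO NLD 22 weeks, and 51.9, 50.05 and 52.5 FPKM in DKO WD 6 weeks, against 20.8, 29.2, 25.97 and 22.2 FPKM in DKO NLD 6 weeks. Libraries of NLD at 6 weeks were the lowest in both genotypes and those of EKO WD 22 weeks the highest. The log2 fold change at 22 weeks was 1.63 (SE 0.20, adjusted p = 2.68e-05) in EKO and 0.35 (SE 0.18, adjusted p = 0.296) in DKO.

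Psap, the precursor of the saposins that present sphingolipids to their hydrolases, was the most abundant of the 39 genes per length. It had 2322, 2258 and 3589.5 FPKM in EKO WD 22 weeks, against 1109, 894 and 1065 FPKM in EKO NLD 22 weeks, and 1019, 907 and 815 FPKM in EKO WD 6 weeks, against 502, 619 and 501 FPKM in EKO NLD 6 weeks. In DKO it had 770.3, 781 and 823 FPKM in DKO WD 22 weeks, against 906, 606 and 781 FPKM in DKO NLD 22 weeks, and 1108, 874 and 849 FPKM in DKO WD 6 weeks, against 518, 542, 630.3 and 567 FPKM in DKO NLD 6 weeks. The partial library, at 2258 FPKM, lay with the others of its group, far above the remaining libraries. With WD at 22 weeks the log2 fold change was 1.38 (SE 0.19, adjusted p = 4.78e-05) in EKO and 0.07 (SE 0.19, adjusted p = 0.903) in DKO.

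Gm2a, the activator protein for ganglioside breakdown, had the smallest change among these. It had 44.7, 37.5 and 57.9 FPKM in EKO WD 22 weeks, against 37.8, 28.2 and 31.3 FPKM in EKO NLD 22 weeks, and 30.1, 23.3 and 22.4 FPKM in EKO WD 6 weeks, against 22.5, 25.3 and 24.6 FPKM in EKO NLD 6 weeks. DKO levels were 17.6, 21.9 and 19.9 FPKM in DKO WD 22 weeks, against 26.1, 24.6 and 22.6 FPKM in DKO NLD 22 weeks, and 24.7, 19.9 and 20.3 FPKM in DKO WD 6 weeks, against 22.7, 20.3, 23.4 and 23.5 FPKM in DKO NLD 6 weeks. Its lowest value in EKO WD 22 weeks was 37.5 FPKM, in the partial library, below the highest of EKO NLD 22 weeks at 37.8 FPKM. Its log2 fold change was 0.500 (SE 0.14, adjusted p = 0.0201), and the call was lost without EKO WD 22 weeks replicate 1 or 3 or EKO NLD 22 weeks replicate 2 or 3.

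Smpd1, the acid sphingomyelinase, was the only member called lower in this comparison and is named for that, after its values were seen. It had 24.1 and 33.8 FPKM in EKO WD 22 weeks, against 43.8, 37.6 and 53.6 FPKM in EKO NLD 22 weeks, and 37.2, 43.6 and 40.1 FPKM in EKO WD 6 weeks, against 35.5, 33.1 and 31.4 FPKM in EKO NLD 6 weeks. DKO levels were 39.6, 34.9 and 31.8 FPKM in DKO WD 22 weeks, against 34.7, 36.3 and 38.7 FPKM in DKO NLD 22 weeks, and 35.8, 42.9 and 31.97 FPKM in DKO WD 6 weeks, against 32.9, 33.1, 39.1 and 30.2 FPKM in DKO NLD 6 weeks. In EKO at 22 weeks the WD values lay below the NLD values without overlap, with a log2 fold change of -0.62 (SE 0.16, adjusted p = 0.0116), and the call was lost without EKO WD 22 weeks replicate 1 or EKO NLD 22 weeks replicate 3. The acid ceramidase Asah1 (log2 1.25), the palmitoyl-protein thioesterase Ppt1 (0.67) and Npc2 (0.57), the soluble partner of Npc1, were higher, running over all libraries between 21.3 and 79.4 FPKM, 20.6 and 48.5 FPKM, and 49.8 and 183 FPKM. The call of Ppt1 was lost without EKO WD 22 weeks replicate 1, and that of Npc2 without EKO WD 22 weeks replicate 1 or 3 or EKO NLD 22 weeks replicate 2.

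In the group of 1 protease and 2 phosphatases, Tpp1 and Acp2 were higher in EKO at 22 weeks on WD and Acp5 was not called. Tpp1, a tripeptidyl peptidase, had 53.00 and 72.1 FPKM in EKO WD 22 weeks, against 37.1, 31.8 and 37.4 FPKM in EKO NLD 22 weeks, and 41.9, 35.2 and 36.5 FPKM in EKO WD 6 weeks, against 35.5, 38.5 and 37.7 FPKM in EKO NLD 6 weeks. DKO levels were 29.3, 38.04 and 33.6 FPKM in DKO WD 22 weeks, against 36.02, 34.8 and 36.9 FPKM in DKO NLD 22 weeks, and 38.02, 35.4 and 32.4 FPKM in DKO WD 6 weeks, against 36.2, 31.7, 34.6 and 32.7 FPKM in DKO NLD 6 weeks. Its log2 fold change was 0.79 (SE 0.13, adjusted p = 0.000332), with both EKO WD 22 weeks libraries above all others.

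Acp2, the lysosomal acid phosphatase, had 20.5 and 20.3 FPKM in EKO WD 22 weeks, against 13.3, 12.6 and 13.3 FPKM in EKO NLD 22 weeks, and 14.8, 12.8 and 12.03 FPKM in EKO WD 6 weeks, against 14.3, 13.2 and 13.2 FPKM in EKO NLD 6 weeks. DKO levels were 9.84, 12.5 and 12.4 FPKM in DKO WD 22 weeks, against 12.7, 12.6 and 11.5 FPKM in DKO NLD 22 weeks, and 12.3, 11.7 and 11.1 FPKM in DKO WD 6 weeks, against 13.6, 12.6, 13.5 and 12.7 FPKM in DKO NLD 6 weeks. All libraries outside EKO WD 22 weeks lay between 9.84 and 14.8 FPKM. The log2 fold change was 0.605 (SE 0.10, adjusted p = 0.000302).

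Acp5, the tartrate-resistant acid phosphatase of osteoclasts and macrophages, had 105 and 157 FPKM in EKO WD 22 weeks, against 129.6, 88.00 and 140.2 FPKM in EKO NLD 22 weeks, and 60.7, 100.3 and 62.7 FPKM in EKO WD 6 weeks, against 46.7, 54.6 and 40.3 FPKM in EKO NLD 6 weeks. DKO levels were 69.9, 42.1 and 58.5 FPKM in DKO WD 22 weeks, against 84.6, 48.2 and 88.1 FPKM in DKO NLD 22 weeks, and 65.7, 114 and 64.1 FPKM in DKO WD 6 weeks, against 21.1, 43.7, 59.8 and 46.2 FPKM in DKO NLD 6 weeks. It was already high in EKO NLD 22 weeks and overlapped EKO WD 22 weeks there, and the log2 fold change of diet was 0.13 (SE 0.38, adjusted p = 0.837), while that of 22 against 6 weeks in EKO on NLD was 1.302 (SE 0.34, adjusted p = 0.0078).

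**Figure D3:**
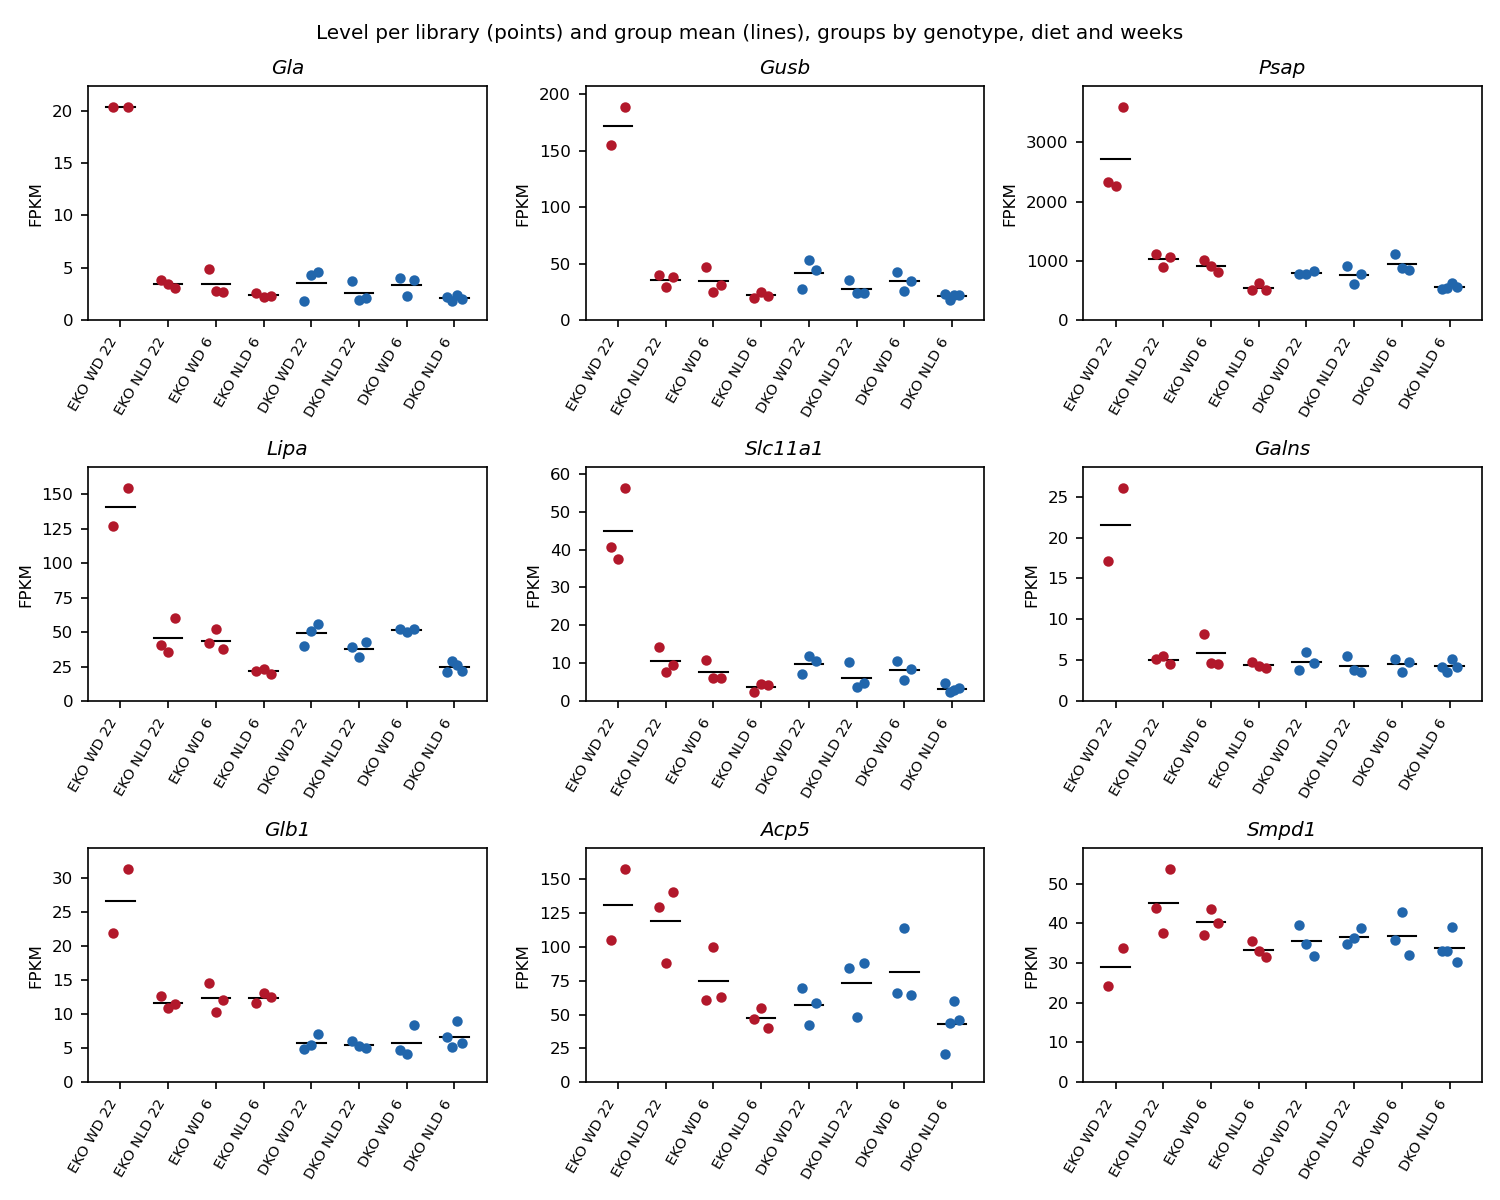
Level in FPKM of 9 members in each library (points) with the group mean (lines), by group (EKO in red, DKO in blue, each with diet and weeks). Gla, Gusb, Psap, Lipa, Slc11a1 and Galns were highest in EKO WD 22 weeks. Glb1 had a higher mean in each EKO group than in the DKO group of the same diet and time, and was called between them only at 22 weeks. Acp5 was high in EKO at 22 weeks on either diet, and Smpd1 was lowest in EKO WD 22 weeks.

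In the main fit all groups share the estimate of the spread, also those outside a comparison. The count differed between fits, and why it did was not tested. With only the 6 libraries of WD and NLD in EKO at 22 weeks, 16 members passed, all higher. With each library left out in turn, 18 of the 25 calls held every time, and with EKO WD 22 weeks replicate 2 left out altogether the counts stayed at 24 higher and 1 lower. With the zeros of that library kept as measured values, 4 members were called in this comparison and 15 of the 25 log2 fold changes turned negative.

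The same diet comparison in DKO at 22 weeks called none of the 39 members in limma, with 6 at an unadjusted p under 0.05, where 0.836% of all genes were higher and 0.899% lower. The members ranged between -0.41 and 0.68 on the log2 scale, with a median of -0.07 and -0.09 over all genes. Higher genes were 48.2% of all calls, and 74.5% with rescaling. Without DKO WD 22 weeks replicate 2, 2 members passed. The summed macrophage markers were 979.6 to 1014 FPKM in DKO WD 22 weeks and 263 to 856 FPKM in DKO NLD 22 weeks, and 1 of the 8 was higher. Whether the genotypes differed was tested directly. In the contrast of diet by genotype at 22 weeks, which takes the change with WD in EKO minus that in DKO, 17 members were positive and none negative, against 3.57% and 0.821% of all genes. The largest were Gla (1.94, SE 0.35, adjusted p = 0.00557), Galns (1.73, SE 0.31, adjusted p = 0.0051), Gusb (1.69, SE 0.36, adjusted p = 0.0125) and Asah1 (1.42, SE 0.28, adjusted p = 0.00882). Slc11a1, at 1.33 (SE 0.45, adjusted p = 0.0949), did not pass. The count moved with single libraries, to 9 without EKO WD 22 weeks replicate 3, 11 without EKO WD 22 weeks replicate 1, 11 without DKO WD 22 weeks replicate 1 and 10 without DKO NLD 22 weeks replicate 1, and with only these 4 groups in the fit 1 member passed.

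**Figure D4:**
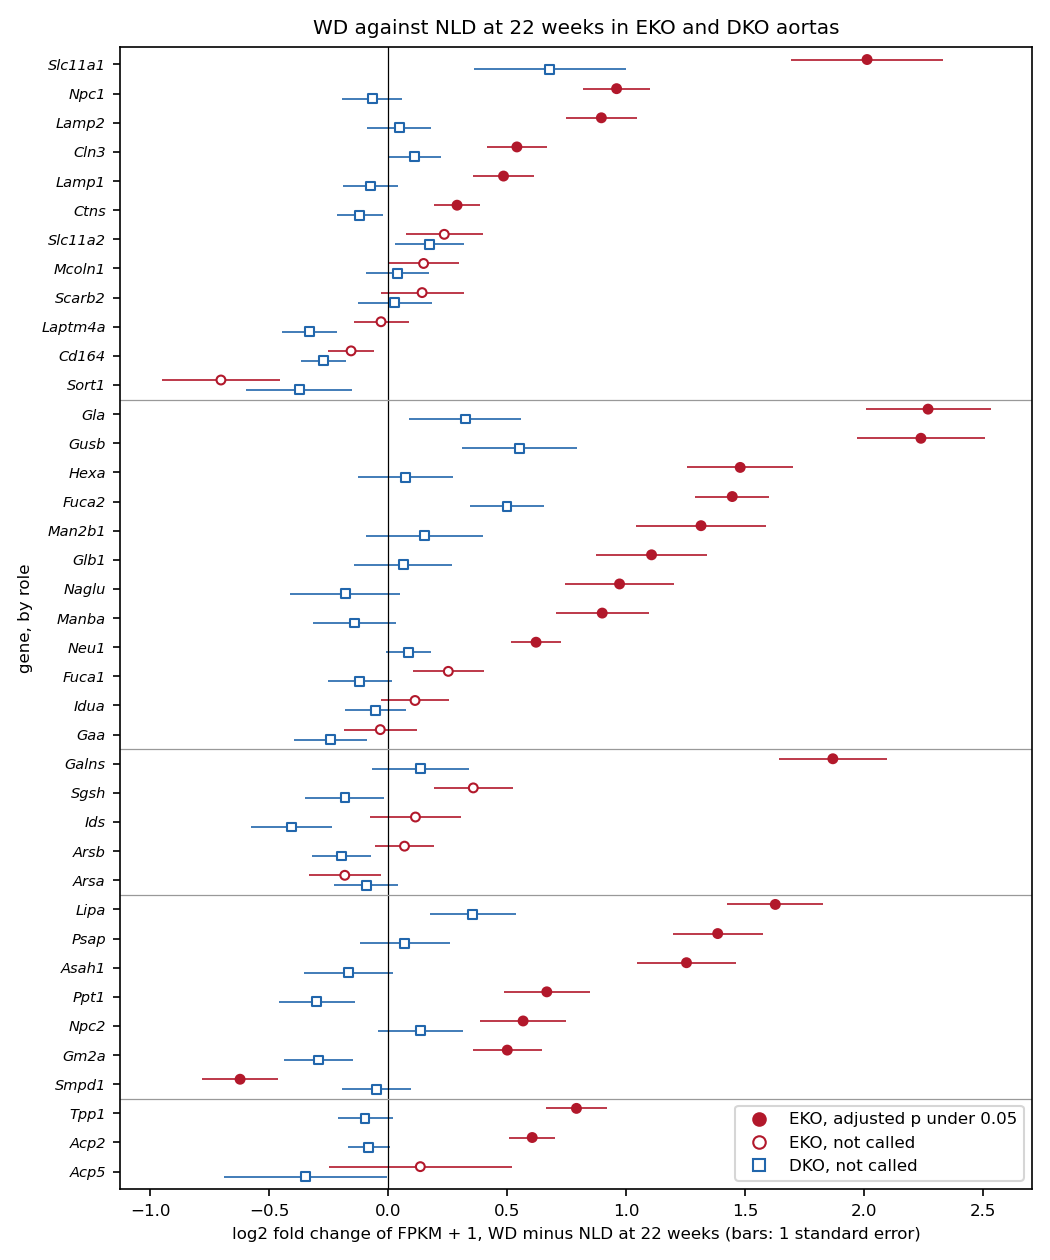
Log2 fold change of WD minus NLD at 22 weeks for each of the 39 genes (rows, by role), in EKO (red circles) and DKO (blue squares), with bars of 1 standard error and filled symbols for an adjusted p under 0.05. In EKO 24 genes were higher and Smpd1 was lower, and in DKO none was called.

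Between the genotypes on WD at 22 weeks the largest log2 fold changes were those of Gla (2.28, SE 0.26, adjusted p = 3.82e-06), Slc11a1 (2.07, SE 0.32, adjusted p = 8.05e-05), Gusb (2.06, SE 0.27, adjusted p = 1.62e-05), Glb1 (2.01, SE 0.23, adjusted p = 3.82e-06) and Galns (1.95, SE 0.23, adjusted p = 4.37e-06). By role, 6 of 12 membrane proteins, 10 of 12 glycosidases, 2 of 5 sulfatases, 6 of 7 lipid hydrolases and activators and all 3 of the last group were higher. Fuca1 (0.76), Sgsh (0.59) and Acp5 (1.19) passed here and not in the diet comparison of EKO at 22 weeks, while Smpd1 (-0.295) did not pass, and the difference between these 2 comparisons was not tested. Of the 27 calls 24 held without any single library, and 15 members passed with only these 2 groups in the fit. Macrophage markers were higher too, in 7 of 8.

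Earlier and on NLD, few members were called between the genotypes, and smaller shares of all genes were called than on WD at 22 weeks. In EKO against DKO on NLD at 6 weeks none passed in limma, with 2 at an unadjusted p under 0.05, where 0.0625% of all genes were higher and 0.0781% lower. On WD at 6 weeks none passed either, again with 2 at an unadjusted p under 0.05, where the background was 0.086% higher and 0.0625% lower, and 1 passed without DKO WD 6 weeks replicate 3. On NLD at 22 weeks 1 member was higher, against 6.42% of all genes, and none was lower, against 1.45%. Higher genes were 81.6% of all calls there, and 68.6% with rescaling. A second passed without DKO NLD 22 weeks replicate 1 or without EKO NLD 22 weeks replicate 2.

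That member was Glb1, described here after its values were seen. The gene lies at chr9:114401078-114474379 (mm10), on the chromosome that also carries Apoa1, at a distance that is not given here. The members Hexa and Acp5 lie on chr9 too, and neither was called in EKO against DKO on NLD at 22 weeks. Any part of the Apoa1 deletion in the level of Glb1 was not tested. Glb1 had 21.9 and 31.3 FPKM in EKO WD 22 weeks, against 12.6, 10.8 and 11.5 FPKM in EKO NLD 22 weeks, and 14.6, 10.4 and 12.1 FPKM in EKO WD 6 weeks, against 11.7, 13.1 and 12.6 FPKM in EKO NLD 6 weeks. In DKO it had 4.82, 5.48 and 7.12 FPKM in DKO WD 22 weeks, against 6.03, 5.38 and 4.997 FPKM in DKO NLD 22 weeks, and 4.74, 4.14 and 8.45 FPKM in DKO WD 6 weeks, against 6.57, 5.15, 9.05 and 5.82 FPKM in DKO NLD 6 weeks. In each of the 4 settings of diet and time every EKO library lay above every DKO library. How often all genes did so was not computed, and Glb1 was not called at 6 weeks on either diet. The log2 fold change of EKO against DKO on NLD at 22 weeks was 0.97 (SE 0.21, adjusted p = 0.00482). In a contrast of the averages of the 4 EKO and the 4 DKO groups, added after the data were seen, it was 1.21 (SE 0.11, adjusted p = 8.78e-08), the largest of the 39. In that contrast 21 members were higher and none lower, against 15.8% and 2.07% of all genes, and higher genes were 88.4% of all calls, or 74.3% with rescaling. The EKO WD 22 weeks libraries enter the EKO average.

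The time comparisons gave a different picture on each diet. In 22 against 6 weeks in EKO on WD, Slc11a1 (2.43, SE 0.32, adjusted p = 1.19e-05), Gusb (2.32, SE 0.27, adjusted p = 3.28e-06), Gla (2.29, SE 0.26, adjusted p = 2.99e-06), Galns (1.73, SE 0.23, adjusted p = 1.45e-05), Lipa (1.66, SE 0.20, adjusted p = 6e-06) and Psap (1.55, SE 0.19, adjusted p = 4.47e-06) had the largest log2 fold changes, and Smpd1 (-0.48, SE 0.16, adjusted p = 0.043) was the member that was lower. Of the 24 calls 19 held without any single library. In 22 against 6 weeks in EKO on NLD, 13 members were higher and 1 was lower, close to the 25.5% of all genes that were higher and under the 11.2% that were lower, a count near the background. Rescaling the libraries by their median ratio moved the median of all genes in that comparison by -0.12, to 0, and left 49.5% of all calls higher, against 69.4% without it. Among the members it gave 8 higher and 4 lower, of which 9 were also called without it. In the same comparison 4 of 8 macrophage markers and 5 of 6 fat markers were higher and 5 of 6 smooth muscle markers lower, and their part was not tested. The 13 were led by Acp5 (1.302, SE 0.34, adjusted p = 0.0078), Slc11a1 (1.27, SE 0.32, adjusted p = 0.00549) and Lipa (1.02, SE 0.18, adjusted p = 0.000517), and the lower one was Ids (-0.76, SE 0.17, adjusted p = 0.00285). The count was 8 without EKO NLD 6 weeks replicate 3 and 9 without EKO NLD 22 weeks replicate 3.

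In DKO no member passed with time. On WD 0 of 39 had even an unadjusted p under 0.05, with 0.117% of all genes higher and 0.102% lower. On NLD 7 had an unadjusted p under 0.05 and none passed adjustment in limma, with 0.0234% and 0.0313% in the background. The test of time by genotype on WD, which takes the change from 22 against 6 weeks in EKO minus that in DKO, was positive for 20 members and negative for none, against 7.74% and 1.24% of all genes. Gla (2.26), Slc11a1 (2.17), Gusb (2.08), Psap (1.79) and Lipa (1.74) led it on the log2 scale. The count was 13 without EKO WD 22 weeks replicate 3, and 9 with only these 4 groups in the fit. The test of diet by time in EKO was positive for 13 members and negative for 1, against 9.43% and 12.1% of all genes (43.7% of calls positive, and 55.8% with rescaling), with Gla (1.91) at one end and Smpd1 (-0.89) at the other.

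**Figure D5:**
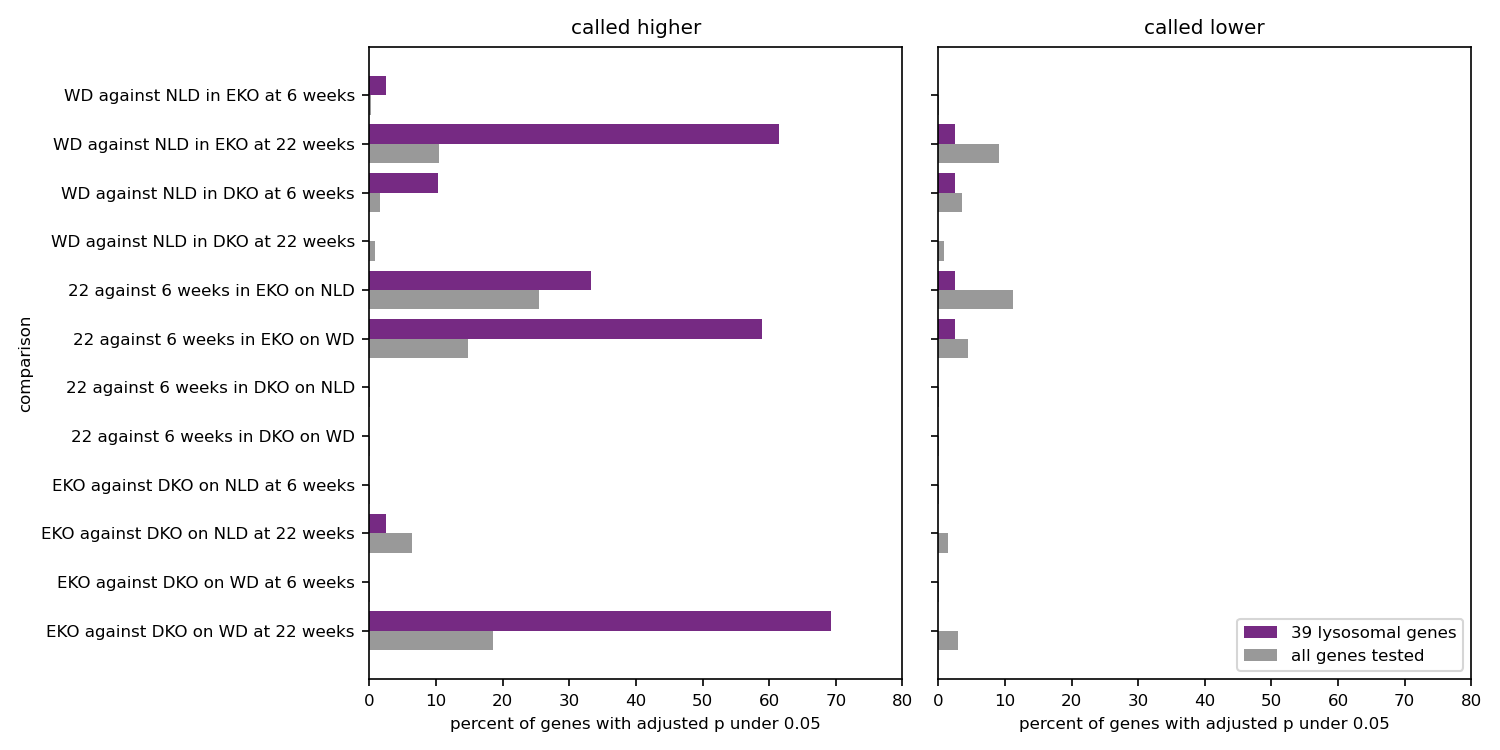
Percent of the 39 lysosomal genes (purple) and of all 12797 genes tested (grey) that were called higher (left panel) or lower (right panel) at an adjusted p under 0.05 in each of the 12 comparisons (rows). The members exceed the background most in the 3 comparisons that contain EKO WD 22 weeks, with 24, 23 and 27 genes higher, and in 22 against 6 weeks in EKO on NLD 13 genes compare with a background of 25.5%.

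At 6 weeks few members were called with diet, and smaller shares of all genes were called than in EKO at 22 weeks. In WD against NLD in EKO at 6 weeks Lipa alone was higher (0.98, SE 0.18, adjusted p = 0.0233), where 0.172% of all genes were higher and 0.164% lower. This call was lost without EKO WD 6 weeks replicate 1 or 2 or EKO NLD 6 weeks replicate 2 or 3. In WD against NLD in DKO at 6 weeks 4 members were higher, against 1.56% of all genes, and 1 was lower, against 3.6%. Higher genes were 30.3% of all calls, and 52.6% with rescaling, where 5 members were higher and none was lower. The higher ones were Slc11a1 (1.08, SE 0.30, adjusted p = 0.0441), Lipa (1.05, SE 0.17, adjusted p = 0.00424), Psap (0.73, SE 0.18, adjusted p = 0.0284) and Cln3 (0.42, SE 0.10, adjusted p = 0.0329), and the lower one was Ids (-0.64, SE 0.16, adjusted p = 0.0327). Only Lipa held without any single library. The count was 1 without DKO WD 6 weeks replicate 1 or 3 or without DKO NLD 6 weeks replicate 1 or 4, and 3 without DKO WD 6 weeks replicate 2.

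The other genes of the compartment came from lists written by hand with earlier results of these data known. They numbered 98, of which 91 were tested. In WD against NLD in EKO at 22 weeks 48 of them were higher and 6 lower, against 10.4% and 9.17% of all genes, with a median log2 fold change of 0.50. Of 13 cathepsins and legumain 11 were higher and 1 lower, of 20 proton pump subunits 11 were higher and none lower, and of 27 other hydrolases and cofactors 12 were higher and 1 lower. Of 28 other membrane proteins 13 were higher and 4 lower, and of 3 MiT/TFE factors 1 was higher. Cd68, counted as higher among these membrane proteins, is also counted among the macrophage markers above. The smallest p among the higher ones were those of Mcoln3, a relative of Mcoln1, with 6.999 and 10.2 FPKM in EKO WD 22 weeks against 0.612, 0.467 and 0.4602 FPKM in EKO NLD 22 weeks, and of Ctsb, the cathepsin B gene. Outside EKO WD 22 weeks Mcoln3 lay between 0 and 1.63 FPKM with a mean of 0.461 FPKM, so it passed the filter of 1 FPKM through the group where it is high, and its call supports nothing. It was the 1 gene of the 91 of which this holds, and it held of none of the 39 members. Ctsb had 1228, 1062 and 1645 FPKM in EKO WD 22 weeks against 426, 326 and 470.2 FPKM in EKO NLD 22 weeks (log2 1.68, SE 0.19, adjusted p = 1.03e-05). The groups did not overlap for either gene. Among the lower ones, Ctsf, a further cathepsin gene, had 19.7 and 22.01 FPKM in EKO WD 22 weeks against 34.96, 34.5 and 38.2 FPKM in EKO NLD 22 weeks (log2 -0.76, SE 0.10, adjusted p = 5.68e-05). Abcb9, a peptide transporter of the lysosomal membrane, had 3.09 and 5.62 FPKM against 11.97, 10.2 and 9.31 FPKM in the same groups (log2 -1.14, SE 0.19, adjusted p = 0.000425). In DKO none of the 91 passed in WD against NLD at 22 weeks in limma, with 13 at an unadjusted p under 0.05, where 0.836% of all genes were higher and 0.899% lower.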

How the data were processed

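RNA of 25 whole mouse aortas was sequenced. The FPKM values, as deposited by the authors, come from Cufflinks on alignments to mm10. Among the tools in the submitters' processing notes are TopHat 1.3.2 over Bowtie 0.12.8, Cuffdiff and SAMtools 0.1.19. No version or gene models of Cufflinks, and no strand-aware counting, are given in the sources used here, so reads of overlapping genes cannot be told apart. The values hold no counts, so depth is unknown and no count test was run. In EKO WD 22 weeks replicate 2 the zeros, 8775 of them among tested genes, were set to missing.

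Values were analysed as log2(FPKM + 1) for the 12797 genes that averaged 1 FPKM or more, in limma 3.58.1 (R 4.3.3) with 1 mean per group over all 8 groups, and trend and robust moderation. Fold changes are on that scale, which understates the change of low genes. There were 12 comparisons, 3 direct tests of a difference and 1 contrast over 4 diet and time groups added after seeing the data. Benjamini-Hochberg adjustment ran within each contrast over all genes tested, and an adjusted p under 0.05 counted as called. Scripts were tested on simulated data. Groups were taken from the labels. The members and gene lists were chosen with earlier results of these data known.

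All members are named. Every library is given for the 2 members with the largest and the 1 with the smallest absolute change of WD against NLD in EKO at 22 weeks in each role group, and for the 1 with the highest mean. From the other lysosomal genes the 2 with the smallest p in each direction are given. Alternatives were the zeros kept, other pseudocounts and filters, rescaling, only the groups compared, a replicate block and each library left out. Promoter windows are from RefSeq, on GRCm38.p6, whose coordinates are those of mm10.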

Additional observations from a re-analysis of the deposited data

Results flagged for a closer look

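In several members an effect differed between groups by a direct test of the difference in limma, at an adjusted p under 0.05. The change with WD at 22 weeks, in EKO minus DKO, was on the log2 scale 1.94 for Gla, 1.73 for Galns, 1.69 for Gusb, 1.42 for Asah1, 1.41 for Hexa, 1.32 for Psap, 1.27 for Lipa, 1.15 for Naglu, 1.04 for Manba and 1.03 for Npc1. It was 0.97 for Ppt1, 0.95 for Fuca2, 0.89 for Tpp1, 0.85 for Lamp2, 0.79 for Gm2a, 0.69 for Acp2 and 0.54 for Neu1. The median macrophage marker sum was 5132 FPKM in EKO WD 22 weeks, 739 FPKM in EKO NLD 22 weeks, 979.9 FPKM in DKO WD 22 weeks and 342 FPKM in DKO NLD 22 weeks, and the part of these cells was not tested.

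The change of 22 against 6 weeks on WD, in EKO minus DKO, was 2.26 for Gla, 2.17 for Slc11a1, 2.08 for Gusb, 1.79 for Psap, 1.74 for Lipa, 1.66 for Galns, 1.39 for Hexa, 1.36 for Man2b1, 1.18 for Fuca2 and 1.13 for Naglu. It was 1.105 for Asah1, 1.05 for Npc1, 0.97 for Gm2a, 0.94 for Npc2, 0.83 for Lamp2, 0.77 for Tpp1, 0.71 for Cln3, 0.69 for Lamp1, 0.61 for Acp2 and 0.61 for Neu1.

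In EKO the change with WD at 22 weeks minus that at 6 weeks was 1.91 for Gla, 1.65 for Gusb, 1.56 for Galns, 1.52 for Asah1, 1.42 for Fuca2, 1.14 for Hexa, 1.13 for Glb1, 1.08 for Manba, 0.84 for Ppt1 and 0.81 for Npc1. It was 0.804 for Lamp2, 0.77 for Tpp1, 0.64 for Acp2 and -0.89 for Smpd1. All 3 tests include the EKO WD 22 weeks libraries, of which replicate 2 has no value for 27 of the 39 genes.

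Among the groups, of which DKO NLD 6 weeks is the only one with 4 libraries, replicate 2 of DKO NLD 6 weeks stood far from the others in 2 members. Manba was 7.84 FPKM there and 9.98 to 10.1 FPKM in the other 3, and Naglu was 10.8 FPKM there and 15.3 to 15.6 FPKM in the other 3. Chance flags about 1 in 20 groups by this measure, and 39 genes were looked at.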

How the results depend on the processing

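Over the 169 called values of members in the 16 contrasts, a pseudocount of 0.1 kept 167, one of 5 kept 168, no filter kept 164, a filter of 5 FPKM kept all 162 that could be computed, and rescaling by the median ratio kept 159, with no sign changed. Fits with only the groups of a comparison kept 108. The members called in such fits were 0 in WD against NLD in EKO at 6 weeks, 16 in WD against NLD in EKO at 22 weeks, 9 in 22 against 6 weeks in EKO on NLD, 15 in EKO against DKO on WD at 22 weeks, 1 in diet by genotype and 9 in time by genotype. In WD against NLD in DKO at 6 weeks the count rose, to 7 members against 5 in the main fit. Such fits have fewer samples to estimate the spread from, and why the counts moved was not tested. With each library left out in turn, the members called were 1 to 4 in WD against NLD in DKO at 6 weeks, 0 in 22 against 6 weeks in DKO on NLD, 0 in EKO against DKO on NLD at 6 weeks and 19 to 24 in EKO against DKO over the 4 diet and time groups. The counts were 0 to 2 in WD against NLD in DKO at 22 weeks, 1 to 2 in EKO against DKO on NLD at 22 weeks, 9 to 19 in the contrast of diet by genotype at 22 weeks and 0 in 22 against 6 weeks in DKO on WD. They were 0 to 1 in EKO against DKO on WD at 6 weeks, 13 to 21 in the contrast of time by genotype on WD, 24 to 28 in EKO against DKO on WD at 22 weeks and 0 to 1 in WD against NLD in EKO at 6 weeks. There were 8 to 14 in 22 against 6 weeks in EKO on NLD, 10 to 17 in the contrast of diet by time in EKO, 20 to 25 in WD against NLD in EKO at 22 weeks and 20 to 25 in 22 against 6 weeks in EKO on WD. A left-out library can leave 1 sample in EKO WD 22 weeks, which is then assumed to vary like the other groups. Rescaling moved the share of higher among called genes from 69.4% to 49.5% in 22 against 6 weeks in EKO on NLD, where it shifted the median of all genes by -0.12.

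The labels number the replicates, and the numbers were checked as pairs. The deviations of libraries with the same number correlated by a median of 0.029 over 84 pairs (-0.39 to 0.41), against -0.0085 over 189 other pairs. These medians showed no pairing by number over all libraries, but cannot exclude it among some of them. The fit with a replicate block kept 155 of 169 values and called 1 member in WD against NLD in DKO at 6 weeks, 1 in EKO against DKO on WD at 6 weeks and 12 in diet by genotype at 22 weeks. With the block 23 members were called in WD against NLD in EKO at 22 weeks.

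Depth is unknown, since FPKM values carry no counts. With the zeros of EKO WD 22 weeks replicate 2 kept as measured values, 23 of the 169 values kept their call, 56 lost it and 90 turned round, which follows from the zeros themselves. The members called were then 0 in WD against NLD in EKO at 6 weeks, 4 in WD against NLD in EKO at 22 weeks, 0 in WD against NLD in DKO at 6 weeks, 1 in 22 against 6 weeks in EKO on NLD and 6 in 22 against 6 weeks in EKO on WD. They were 0 in EKO against DKO on NLD at 22 weeks, 6 in EKO against DKO on WD at 22 weeks, 0 in diet by genotype, 2 in time by genotype, 1 in diet by time and 3 in EKO against DKO over the 4 diet and time groups. In WD against NLD in EKO at 22 weeks the log2 fold changes became -2.36 for Lamp1, -1.43 for Lamp2, -0.58 for Npc1, -0.67 for Cln3, -0.48 for Glb1, -1.12 for Hexa, -0.696 for Neu1, -0.24 for Gusb, -0.72 for Man2b1, -0.38 for Manba, -0.84 for Asah1, -0.75 for Lipa and -1.199 for Ppt1. For further genes they became -1.200 for Tpp1 and -0.87 for Acp2. In 22 against 6 weeks in EKO on WD the log2 fold changes became -2.31 for Lamp1, -1.42 for Lamp2, -0.54 for Npc1, -0.503 for Cln3, -0.55 for Glb1, -1.11 for Hexa, -0.63 for Neu1, -0.16 for Gusb, -0.62 for Man2b1, -0.59 for Manba, -1.38 for Fuca1, -0.92 for Asah1 and -0.72 for Lipa. For further genes they became -1.295 for Tpp1 and -0.88 for Acp2. In EKO against DKO on WD at 22 weeks the log2 fold changes became -2.09 for Lamp1, -1.52 for Lamp2, -0.43 for Npc1, -0.64 for Cln3, -0.997 for Hexa, -0.66 for Neu1, -0.42 for Gusb, -0.51 for Man2b1, -0.35 for Manba, -1.14 for Fuca1, -0.797 for Asah1, -0.87 for Lipa and -1.13 for Ppt1. For further genes they became -1.13 for Tpp1, -0.699 for Acp2 and -1.15 for Acp5. In the contrast of diet by genotype at 22 weeks the log2 fold changes became -1.47 for Lamp2, -0.52 for Npc1, -1.19 for Hexa, -0.78 for Neu1, -0.79 for Gusb, -0.24 for Manba, -0.67 for Asah1, -1.11 for Lipa, -0.899 for Ppt1, -1.103 for Tpp1 and -0.79 for Acp2. In the contrast of time by genotype on WD the log2 fold changes became -2.16 for Lamp1, -1.49 for Lamp2, -0.49 for Npc1, -0.51 for Cln3, -1.202 for Hexa, -0.704 for Neu1, -0.400 for Gusb, -0.67 for Man2b1, -0.99 for Asah1, -0.64 for Lipa, -1.23 for Tpp1 and -0.86 for Acp2. In the contrast of diet by time in EKO the log2 fold changes became -1.52 for Lamp2, -0.73 for Npc1, -0.46 for Glb1, -1.45 for Hexa, -0.83 for Gusb, -0.198 for Manba, -0.57 for Asah1, -1.02 for Ppt1, -1.22 for Tpp1 and -0.83 for Acp2. In EKO against DKO over the 4 diet and time groups the log2 fold changes became -0.46 for Lamp1, -0.081 for Npc1, -0.12 for Hexa, -0.11 for Neu1, -0.008 for Gusb, -0.041 for Manba, -0.15 for Fuca1, -0.12 for Asah1, -0.26 for Lipa, -0.23 for Tpp1 and -0.100 for Acp2.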

Other observations

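The wider compartment was also followed in the other comparisons that contain EKO WD 22 weeks, over the 91 other lysosomal genes tested. In EKO against DKO on WD at 22 weeks 62 were higher and 2 lower, against 18.6% and 2.93% of all genes. By list, 15 of 20 proton pump subunits, 11 of 13 cathepsins and legumain, 18 of 27 other hydrolases and cofactors, 16 of 28 other membrane proteins and 2 of 3 MiT/TFE factors were higher. In 22 against 6 weeks in EKO on WD 54 were higher and 4 lower, against 14.8% and 4.45% of all genes, with 16 of 20 proton pump subunits higher. Cd68 is both in the list of other membrane proteins and among the macrophage markers. The lists were chosen with earlier results of these data known, and the part of macrophages in these counts was not tested.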
